A study of Homo sapiens with 6 samples.

Results

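Integrin and laminin genes were followed through the conversion of the established human embryonic stem cell line WA09 into early mesoderm and then smooth muscle. The genes were taken by symbol: all integrin alpha subunits, integrin beta subunits 1 to 8, and the laminin alpha, beta and gamma chains. Of the 18417 genes measured, 35 met the rule, comprising 17 alpha subunits, 8 beta subunits and 10 laminin chains. ITGA1 lies on a probe set that also carries PELO and was not counted as a member. Each gene was read by 1 probe set, whose deposited value is a log2 signal, so that levels can be compared between samples for a gene but not between genes.

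Total RNA came from 3 groups with 2 arrays each. The first, hESC, is the undifferentiated line kept in StemPro defined medium. The second, INM, is named ISL1+ nascent mesoderm and had been in defined medium with 25 ng/ml of Wnt3a and 50 ng/ml of BMP4 for 4 days. The third, SMC, is named smooth muscle and had received both factors for 21 days. All 3 groups derive from a single cell line, and the labels mention no sort for ISL1. Nothing in the labels says that the 2 replicates of a group were separate cultures, and the p-values thus cover just the variation among these arrays, which may be technical. With pairs of arrays, the smallest two-sided p of an exact permutation test is 0.333, so tests rest on a limma fit across all genes with p-values adjusted over 18417 genes. Genes with an adjusted p under 0.05 are spoken of as called.

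Markers of the labelled cells were checked first. All 8 pluripotency markers were lower in SMC than in hESC, and 7 of 8 were lower in INM, the exception being LIN28A. All 8 mesoderm markers, ISL1 among them, were higher in INM than in hESC. Of 8 smooth muscle markers, 7 were higher in SMC than in hESC, but the contractile myosin gene MYH11 was not called (-0.13, adjusted p = 0.507). In INM 5 of the 8 were already higher than in hESC. Against INM, 3 were higher in SMC and 1, MYOCD, was lower (-1.74, adjusted p = 0.00444). Trophoblast markers were higher in INM than in hESC for 4 of 6 measured genes, and epithelial markers were lower in SMC than in INM for 7 of 7. Endothelial markers were higher in SMC than in hESC for 4 of 8 genes. Of 7 measured haematopoietic markers, 3 were higher and 1 lower in INM than in hESC, and 2 were higher and 2 lower in SMC. Among them, the pan-leukocyte gene PTPRC had a mean of 3.44 in hESC, 3.47 in INM and 3.88 in SMC. The INM arrays lay further apart than the others: the pooled replicate SD over all genes was 0.149 in hESC, 0.313 in INM and 0.132 in SMC.

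Integrins are cell surface receptors made of 1 alpha and 1 beta subunit, and the pair decides which matrix protein is bound. Laminins are secreted trimers of an alpha, a beta and a gamma chain that form the sheet of the basement membrane together with type IV collagen and nidogen. Pluripotent stem cells attach to laminin largely through the pair of ITGA6 and ITGB1, whereas fibronectin is bound by ITGA5 with ITGB1 and by ITGAV with several beta subunits, and smooth muscle in the vessel wall is enclosed by its own basement membrane.

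In INM 13 of the 35 genes were called higher and 2 lower than in hESC, beside 18.9% and 14.8% of all genes, or 15 called in all beside 33.8%. The median change of the 35 genes was 0.31, against -0.03 over all genes. From INM to SMC 5 genes rose and 5 fell, beside 9.94% and 11.1% of all genes, or 10 called in all beside 21%, with a median change of -0.17. In SMC 11 genes were higher and 3 lower than in hESC, beside 19.7% and 17.6% of all genes, or 14 called in all beside 37.2%, with a median change of 0.11. The moderated F test over the groups called 18 of 35 genes, beside 45.5% of all genes. In none of the 3 comparisons were 16 genes called, 45.7% beside 49.4% of all genes. Since each pair of comparisons shares a group, they are not independent of each other. The fit also uses 1 spread per gene for all groups, though the groups differ in spread. Over the 35 genes the pooled replicate SD was 0.109 in hESC, 0.64 in INM and 0.0877 in SMC. The gap of the INM pair thus enters the SE of SMC minus hESC, while that difference itself uses no INM array. When an array is left out, its group keeps 1 array and adds nothing to the spread. Without an INM array the spread comes from the close hESC and SMC pairs alone, so calls of INM differences there hold no INM spread. For SMC minus hESC such a fit is the same as fitting only those 2 groups. Without an hESC or SMC array the INM gap weighs more. The number called moved with the array left out, for all genes as well as for the 35.

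**Figure D1:**
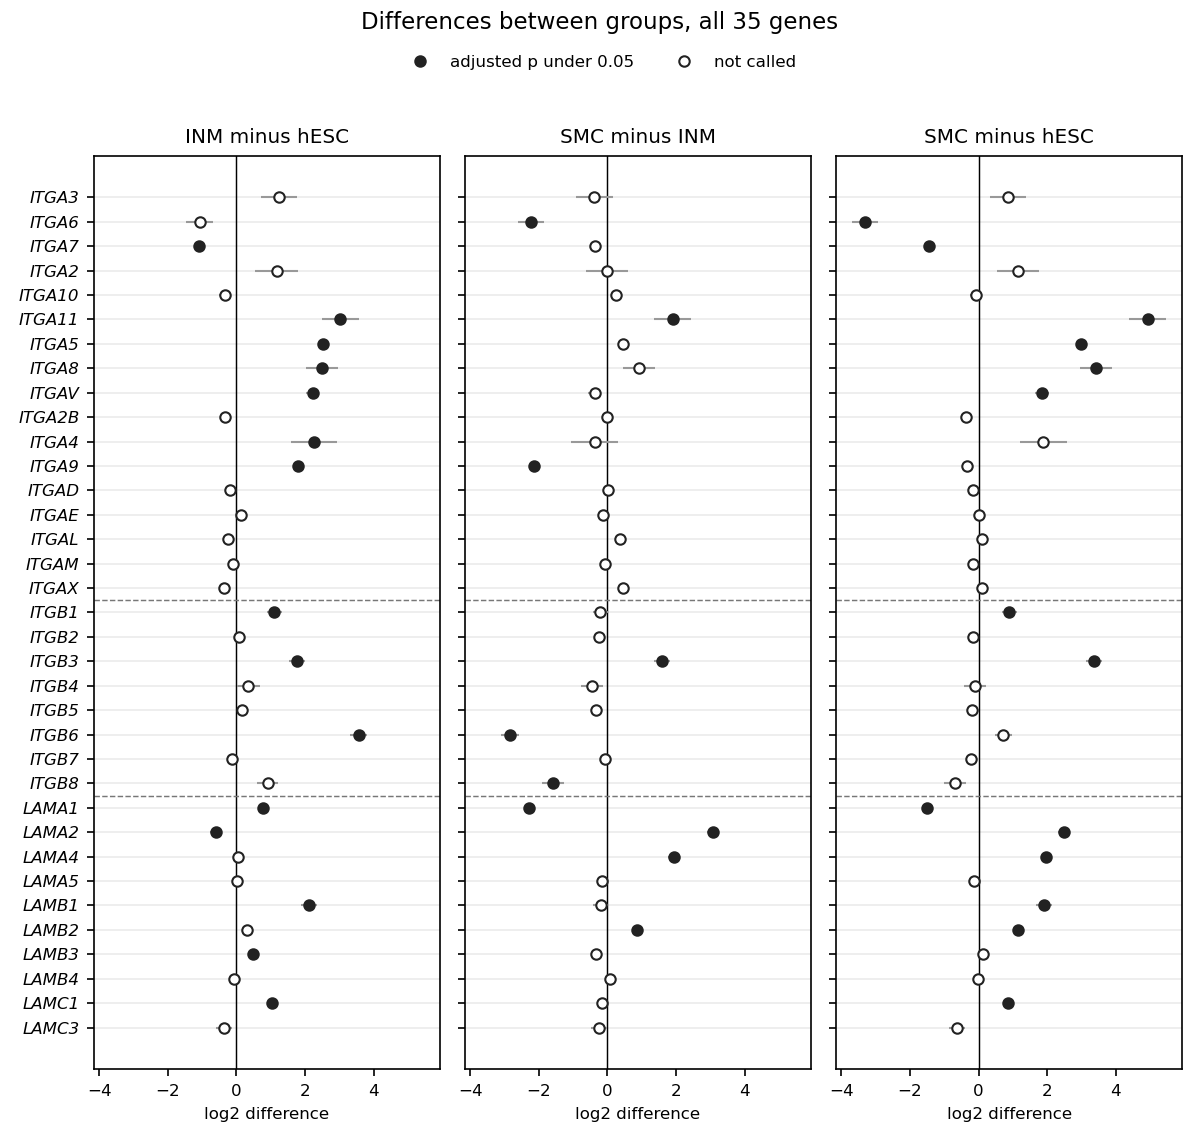
Log2 difference between group means (horizontal axis) for each of the 35 genes (rows) in INM minus hESC, SMC minus INM and SMC minus hESC. Bars are the standard error, filled points have an adjusted p under 0.05, and dashed lines part alpha subunits, beta subunits and laminins. The highest value is that of ITGA11 at 4.93 and the lowest that of ITGA6 at -3.31, both in SMC minus hESC.

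Several timings can be read from the called genes. LAMB1, LAMC1, ITGA5, ITGAV, ITGA8, ITGB1, ITGA4 and LAMB3 rose in INM without a further call between INM and SMC, 8 of 35 genes against 11.8% of all genes. Of these, ITGA4 and LAMB3 were not called in SMC against hESC. ITGA9, ITGB6 and LAMA1 rose in INM and fell in SMC, 3 of 35 against 4.9% of all genes. LAMA4 and LAMB2 were first called higher between INM and SMC, 2 of 35 genes against 5% of all genes. LAMB2 already lay above hESC on both INM arrays, without a call. LAMA2 rose between INM and SMC after a fall in INM, 1 of 35 against 2.73% of all genes. ITGA11 and ITGB3 rose at each step (2 of 35 against 2.22%). ITGA7 was called lower only at the first step (1 of 35 against 10.7%), and ITGA6 and ITGB8 only at the second (2 of 35 against 4.81%).

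Promoter sequence for genes of these timings is shown from RefSeq (GRCh38.p14), as the 250 bases before an annotated start, read 5′ to 3′ on the gene's own strand. LAMB1 and LAMC1 rose in INM without a further call, and LAMA2 and LAMA4 rose between INM and SMC. ITGA11 rose at each step, and ITGB6 rose in INM and fell in SMC. Capitals mark matches, on either strand, to the GC box GGGCGG, the E-box CAGGTG, the AP-1 motif TGANTCA, the TEAD motif GGAATG or the TATA box TATAAA.
LAMB1 (chr7:108003162-108003411, minus strand): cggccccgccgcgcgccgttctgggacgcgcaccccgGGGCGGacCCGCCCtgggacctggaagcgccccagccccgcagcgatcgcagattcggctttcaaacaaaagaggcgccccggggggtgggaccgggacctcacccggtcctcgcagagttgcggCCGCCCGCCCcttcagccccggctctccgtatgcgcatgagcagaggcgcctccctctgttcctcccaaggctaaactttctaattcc
LAMC1 (chr1:183023170-183023419, plus strand): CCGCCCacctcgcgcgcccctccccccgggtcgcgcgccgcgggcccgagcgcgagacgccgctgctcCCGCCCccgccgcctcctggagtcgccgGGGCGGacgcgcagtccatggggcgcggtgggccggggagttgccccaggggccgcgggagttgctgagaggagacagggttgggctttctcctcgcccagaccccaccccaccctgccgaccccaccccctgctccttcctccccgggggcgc
LAMA2 (chr6:128882888-128883137, plus strand): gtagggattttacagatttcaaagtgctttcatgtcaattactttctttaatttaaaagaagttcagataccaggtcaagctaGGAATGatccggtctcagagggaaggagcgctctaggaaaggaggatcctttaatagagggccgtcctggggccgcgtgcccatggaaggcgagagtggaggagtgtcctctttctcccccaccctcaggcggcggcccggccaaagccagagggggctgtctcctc
LAMA4 (chr6:112254568-112254817, minus strand): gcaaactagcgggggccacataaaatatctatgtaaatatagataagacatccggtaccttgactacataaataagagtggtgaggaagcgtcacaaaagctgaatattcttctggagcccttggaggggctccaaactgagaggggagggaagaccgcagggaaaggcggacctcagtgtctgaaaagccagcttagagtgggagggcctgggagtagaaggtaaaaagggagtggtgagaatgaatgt
ITGA11 (chr15:68432164-68432413, minus strand): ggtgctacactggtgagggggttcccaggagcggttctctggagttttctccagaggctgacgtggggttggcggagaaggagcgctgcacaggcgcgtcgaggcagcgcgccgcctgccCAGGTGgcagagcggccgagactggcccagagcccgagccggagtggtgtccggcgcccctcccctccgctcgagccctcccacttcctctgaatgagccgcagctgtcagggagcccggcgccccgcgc
ITGB6 (chr2:160200273-160200522, minus strand): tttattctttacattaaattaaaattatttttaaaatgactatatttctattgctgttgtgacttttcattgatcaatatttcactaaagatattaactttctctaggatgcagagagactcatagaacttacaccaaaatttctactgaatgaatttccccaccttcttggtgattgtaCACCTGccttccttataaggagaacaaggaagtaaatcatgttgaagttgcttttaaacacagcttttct

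The printed windows range widely in composition. The LAMB1 window holds 28 CpG dinucleotides at 70.4% G and C, and that of LAMC1 holds 32 at 79.6%. LAMA2 and LAMA4 have 9 and 5 CpG at 53.2% and 48.4%, and ITGB6 has 0 at 30.0%. The GC box occurs 4 times in the LAMB1 window and 3 times in that of LAMC1, where LAMA2, LAMA4, ITGA11 and ITGB6 have no match. Other genes of the same timings share these features only in part. Of those that rose in INM without a further call, ITGB1 has a window with 32 CpG at 78.4% and 3 GC boxes and another with 4 at 41.6%. ITGAV has a window with 18 CpG at 70.8% and another with 1 at 40.8%, both without a GC box. ITGA8 has 19 CpG and 4 GC boxes, ITGA5 has 12 and 1, and ITGA4 has 25 but no GC box. The windows of LAMB3 hold 3 to 10 CpG and 1 GC box each. LAMB2, first called between INM and SMC, has 12 CpG at 58.4% and 1 GC box. Starts were found for 24 of the 35 genes, in 31 windows because some genes have several. Of these windows 51.6% held a GC box, 22.6% the E-box, 12.9% the TEAD motif, 6.45% the TATA box and 3.23% the AP-1 motif, against 42.6%, 17.5%, 11.9%, 10.7% and 6.57% of 35116 windows of the same length. These are matches of letters only.

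Among the laminin-binding alpha subunits, ITGA6 and ITGA7 were lower in SMC than in hESC and ITGA3 was not called. ITGA6, the laminin receptor subunit of stem cells and of basal epithelium, stood at 10.19 and 10.23 in hESC, 9.79 and 8.48 in INM, then 6.98 and 6.82 in SMC. The groups did not overlap, and the steps went downward. ITGA6 was 9.93-fold lower in SMC than in hESC (log2 difference -3.31, SE 0.38, adjusted p = 0.000926) and 4.71-fold lower than in INM (-2.24, SE 0.38, adjusted p = 0.00906). In bulk RNA, fewer cells of a type and less RNA per cell cannot be told apart. Of 7 measured epithelial markers, 4 (CDH1, EPCAM, CLDN6 and CLDN4) were lower and 2 (KRT8 and KRT18) higher in SMC than in hESC, and all 7 were lower in SMC than in INM. Their mean level per array ran from 10.17 to 10.19 in hESC, 10.70 to 11.17 in INM and 8.51 to 8.59 in SMC. Their part in the fall of ITGA6 was not tested. Between INM and hESC the ITGA6 difference of -1.08 was not called (adjusted p = 0.0709). It was -1.73 without INM replicate 1 and -0.42 without INM replicate 2. The SMC call against INM ended without SMC replicate 1 (adjusted p = 0.0683) or 2 (adjusted p = 0.0831).

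ITGA7, the partner of ITGB1 that binds laminin in muscle, stood at 7.58 and 7.56 in hESC, 6.45 and 6.49 in INM, then 6.09 and 6.16 in SMC. It fell by 1.10 in INM against hESC (SE 0.11, adjusted p = 0.000733) and by 1.45 in SMC against hESC (SE 0.11, adjusted p = 0.000163). SMC and INM did not overlap, yet their difference of -0.35 was not called (adjusted p = 0.0634). For ITGA3, the third member of this class and an epithelial laminin receptor, the arrays read 7.81 and 7.88 in hESC, 10.03 and 8.16 in INM, then 8.65 and 8.77 in SMC. Both derivatives lay above hESC on every array, with SMC inside the INM range. The SMC minus hESC difference of 0.86 (adjusted p = 0.248) was called when an INM array was left out (adjusted p = 0.000309 without either).

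**Figure D2:**
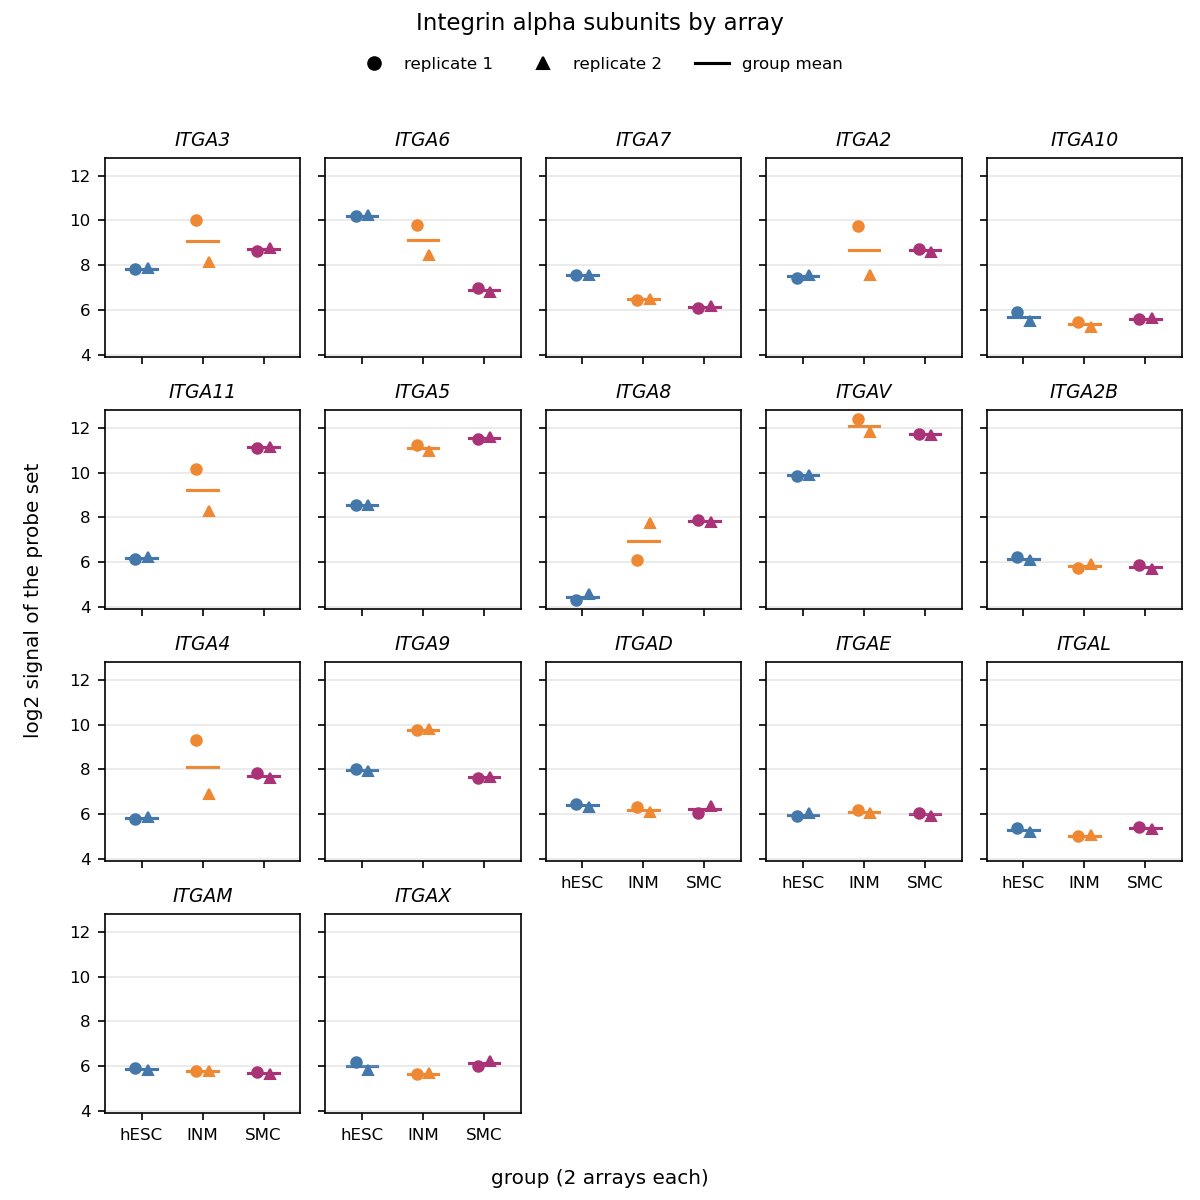
Log2 signal (vertical axis) of each integrin alpha subunit on every array, by group (horizontal axis), with circles for replicate 1, triangles for replicate 2 and a line at the group mean. ITGA6 steps down to 6.98 and 6.82 in SMC, ITGA11 steps up to 11.10 and 11.16, and the 2 INM arrays part widely for ITGA2, ITGA3, ITGA4, ITGA8 and ITGA11.

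The collagen receptors were led by ITGA11. This subunit, which pairs with ITGB1 and binds fibrillar collagen on mesenchymal cells, stood at 6.15 and 6.24 in hESC, 10.18 and 8.27 in INM, then 11.10 and 11.16 in SMC. Every step led upward on every array. ITGA11 was 30.6-fold higher in SMC than in hESC (log2 difference 4.93, SE 0.54, adjusted p = 0.00075) and 8.15-fold higher in INM than in hESC (3.03, SE 0.54, adjusted p = 0.00683). The rise in INM was 2.07 without INM replicate 1 and 3.98 without INM replicate 2, and it lost its call without hESC replicate 1 (adjusted p = 0.0575). Between SMC and INM the difference of 1.91 lay at the threshold (adjusted p = 0.0497), with adjusted p between 0.107 and 0.213 when an hESC or SMC array was left out, and it was 2.86 without INM replicate 1 and 0.95 without INM replicate 2. Fibrillar collagen genes moved alongside: COL3A1 was 5.62 and COL1A1 3.96 higher in SMC than in hESC.

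ITGA2, a collagen receptor of epithelia and platelets, read 7.43 and 7.58 in hESC, 9.77 and 7.58 in INM, then 8.75 and 8.58 in SMC. The INM arrays enclosed both SMC arrays, and 1 of them lay at the hESC level. No comparison of ITGA2 was called on all arrays, with 1.16 for SMC minus hESC (adjusted p = 0.189), but without either INM array that difference was called (adjusted p = 9.94e-05). ITGA10, the chondrocyte collagen receptor, stayed between 5.25 and 5.90 on all arrays and was not called.

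Of the alpha subunits that bind the RGD peptide of fibronectin and vitronectin, 3 of 4 were higher in both derivatives than in hESC, beside 18.9% of all genes in INM and 19.7% in SMC. ITGA5, the main fibronectin receptor subunit, read 8.55 and 8.56 in hESC, 11.23 and 10.95 in INM, then 11.48 and 11.59 in SMC. It was 5.79-fold higher in INM than in hESC (log2 difference 2.53, SE 0.13, adjusted p = 9.16e-05) and 7.90-fold higher in SMC than in hESC (2.98, SE 0.13, adjusted p = 3.03e-05). SMC lay above INM by 0.45 without a call (adjusted p = 0.058), and by 0.59 without INM replicate 1. FN1, the fibronectin gene, rose with it, by 2.00 in INM and 2.29 in SMC against hESC.

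ITGAV, the shared partner of several beta subunits, read 9.86 and 9.89 in hESC, 12.39 and 11.80 in INM, then 11.74 and 11.70 in SMC. The derivatives stood well clear of hESC, with SMC just under both INM arrays. The rise was 4.66-fold in INM (2.22, SE 0.20, adjusted p = 0.000498) and 3.59-fold in SMC (1.84, SE 0.20, adjusted p = 0.000667), each against hESC. ITGA8, a subunit of mesenchyme and vascular smooth muscle that binds nephronectin, read 4.29 and 4.55 in hESC, 6.11 and 7.73 in INM, then 7.87 and 7.80 in SMC. Its hESC mean lay under 5.63, the mean of the 2 hESC array medians of probe sets with no gene symbol, so its level there is not shown to be above background and no fold is given. ITGA8 rose by 2.50 in INM (SE 0.47, adjusted p = 0.0081) and by 3.42 in SMC (SE 0.47, adjusted p = 0.00185) against hESC, and the INM call ended without hESC replicate 1 (adjusted p = 0.068). The rise in INM was 3.31 without INM replicate 1 and 1.69 without INM replicate 2. The SMC minus INM difference of 0.92 was not called (adjusted p = 0.217), and it was 0.11 without INM replicate 1 and 1.73 without INM replicate 2. ITGA2B, the platelet subunit, was not called, and its arrays lay between 5.71 and 6.22, but its SMC minus hESC difference of -0.36 was called without either INM array (adjusted p = 0.0321).

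ITGA9 and ITGA4, related subunits that bind tenascin, osteopontin and VCAM1, were both higher in INM than in hESC. ITGA9 read 8.01 and 7.93 in hESC, 9.77 and 9.78 in INM, then 7.62 and 7.67 in SMC. The INM arrays were close to each other and stood above every other array. ITGA9 was 3.50-fold higher in INM than in hESC (1.81, SE 0.11, adjusted p = 0.000132) and 4.38-fold lower in SMC than in INM (-2.13, SE 0.11, adjusted p = 0.000124). The SMC minus hESC difference of -0.33 was not called on all arrays (adjusted p = 0.0548). It was called with only the 2 groups compared (adjusted p = 0.0291), which is the same fit as leaving out either INM array. Array weights (0.022), median centring (0.0368), quantile normalization (0.0176) and the low-signal filter (0.0471) also gave a call, and the remaining alternatives did not. ITGA4, which homes leukocytes and is expressed in early mesenchyme, read 5.77 and 5.88 in hESC, 9.30 and 6.88 in INM, then 7.83 and 7.61 in SMC. Its INM arrays fell on either side of the SMC arrays. The INM minus hESC difference of 2.27 was called on all arrays (adjusted p = 0.043) but not when an hESC array (adjusted p = 0.18 without replicate 1, 0.151 without replicate 2) or an SMC array (0.0865 without either) was left out. It was 3.47 without INM replicate 2 and 1.06 without INM replicate 1. The SMC minus hESC difference of 1.89 was not called (adjusted p = 0.0704), but it was called without either INM array (adjusted p = 8.18e-06). The tenascin gene TNC rose by 3.88 in INM and by 4.98 in SMC against hESC.

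The leukocyte alpha subunits ITGAD, ITGAE, ITGAL, ITGAM and ITGAX were called in none of the 3 comparisons and not by the F test. Their 30 array values lay between 5.02 and 6.45. The leukocyte beta subunits ITGB2 and ITGB7 were not called either, at 5.97 to 6.37 and 5.65 to 5.99.

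Among the beta subunits ITGB1, ITGB3 and ITGB6 rose in INM. ITGB1, the partner of most alpha subunits, read 10.50 and 10.62 in hESC, 11.99 and 11.33 in INM, then 11.57 and 11.34 in SMC. Both derivatives lay above hESC and overlapped each other. ITGB1 was 2.14-fold higher in INM (1.10, SE 0.22, adjusted p = 0.011) and 1.85-fold higher in SMC (0.89, SE 0.22, adjusted p = 0.0206) than in hESC. These calls ended without an hESC array, with adjusted p of 0.0813 and 0.0584 for INM and 0.119 and 0.0821 for SMC, and the SMC call also ended without an SMC array (0.13 and 0.0704).

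ITGB3, the partner of ITGAV in vascular and bone cells, read 5.13 and 5.00 in hESC, 7.19 and 6.46 in INM, then 8.36 and 8.49 in SMC. It climbed at each step, and its hESC level is not shown to be above background. ITGB3 rose by 1.76 in INM against hESC (SE 0.23, adjusted p = 0.00219), by 1.60 in SMC against INM (SE 0.23, adjusted p = 0.00503) and by 3.37 in SMC against hESC (SE 0.23, adjusted p = 0.000121). The middle one of these calls ended without SMC replicate 2 (adjusted p = 0.0576).

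ITGB6, an epithelial partner of ITGAV that activates latent TGF-beta, read 4.98 and 4.99 in hESC, 8.96 and 8.14 in INM, then 5.65 and 5.76 in SMC. Its INM arrays were far above all others. ITGB6 rose by 3.56 in INM against hESC (SE 0.25, adjusted p = 0.000216), where the hESC level is not shown to be above background, and was 7.18-fold lower in SMC than in INM (-2.84, SE 0.25, adjusted p = 0.000809). The residual SMC minus hESC difference of 0.72 was not called (adjusted p = 0.065) but was called without either INM array (adjusted p = 0.00071). The trophoblast markers TFAP2A, KRT7, GATA3 and VGLL1 also peaked in INM, with means of 5.50, 6.17, 5.56 and 6.01 in hESC, 10.88, 8.94, 9.48 and 7.83 in INM, then 8.16, 6.55, 6.79 and 6.27 in SMC, while ELF5 and CGA were not called. The mean level over the 6 measured trophoblast markers ran from 5.66 to 5.84 in hESC, 7.69 to 8.65 in INM and 6.37 to 6.47 in SMC. The KRT7 calls ended in some fits that left an array out. CGA in INM minus hESC was -0.50 without INM replicate 1 and 2.12 without INM replicate 2. Among epithelial markers, all 7 measured were called higher in INM than in the mean of hESC and SMC. The part of either marker list in the ITGB6 peak was not tested.

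ITGB8, which also pairs with ITGAV and activates TGF-beta, read 6.45 and 6.66 in hESC, 6.93 and 7.99 in INM, then 5.86 and 5.88 in SMC. It was 3.01-fold lower in SMC than in INM (-1.59, SE 0.32, adjusted p = 0.0159), a call that ended without either SMC array (adjusted p = 0.106). The INM minus hESC difference of 0.91 was not called (adjusted p = 0.0684), and it was 1.44 without INM replicate 1 and 0.38 without INM replicate 2. The SMC minus hESC difference of -0.68 was not called on all arrays (adjusted p = 0.139). It was called with only the 2 groups compared, the same fit as without either INM array (0.00152), and with array weights (0.0161). ITGB5, the vitronectin receptor subunit, lay between 10.45 and 10.96 and was not called on all arrays. Without INM replicate 1 its difference was -0.50 in SMC minus INM and 0.40 in INM minus the mean of hESC and SMC. With quantile normalization it was called in SMC minus hESC (-0.39, adjusted p = 0.0487). ITGB4, the hemidesmosome partner of ITGA6, read 6.37 and 6.36 in hESC, 7.28 and 6.14 in INM, then 6.26 and 6.25 in SMC, with no call on all arrays. Its INM minus hESC difference was 0.91 without INM replicate 2 and -0.22 without INM replicate 1.

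**Figure D3:**
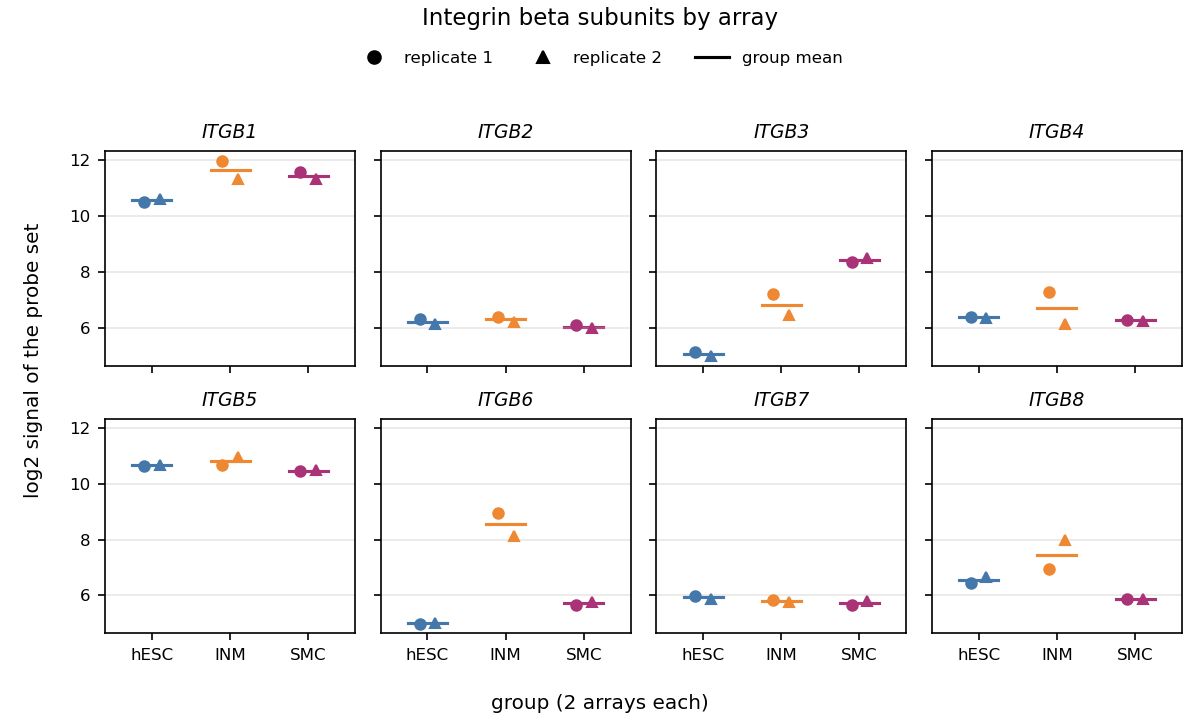
Log2 signal (vertical axis) of each integrin beta subunit on every array, by group (horizontal axis), drawn with circles for replicate 1, triangles for replicate 2 and a line at the group mean. ITGB3 climbs to 8.36 and 8.49 in SMC, and ITGB6 reaches 8.96 and 8.14 in INM.

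Among the laminin alpha chains LAMA1 fell in SMC against INM, while LAMA2 and LAMA4 rose. LAMA1, the alpha chain of the first embryonic basement membranes, read 8.67 and 8.71 in hESC, 9.69 and 9.26 in INM, then 7.14 and 7.26 in SMC. SMC lay below every other array and INM above. LAMA1 was 4.84-fold lower in SMC than in INM (-2.27, SE 0.16, adjusted p = 0.000368) and 2.81-fold lower than in hESC (-1.49, SE 0.16, adjusted p = 0.000755). Its 1.72-fold rise in INM against hESC (0.78, SE 0.16, adjusted p = 0.0122) ended without hESC replicate 1 (adjusted p = 0.0807) or 2 (0.0663) and with quantile normalization (0.0642).

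LAMA2, the muscle laminin chain whose loss causes congenital muscular dystrophy, read 6.79 and 7.02 in hESC, 6.10 and 6.54 in INM, then 9.37 and 9.43 in SMC. The SMC arrays stood far above the others. LAMA2 was 8.48-fold higher in SMC than in INM (3.08, SE 0.17, adjusted p = 0.000157) and 5.65-fold higher than in hESC (2.50, SE 0.17, adjusted p = 0.000122). A fall of 0.59 in INM against hESC was called on all arrays (adjusted p = 0.0402) but in only 1 of the 6 fits that left an array out, with adjusted p between 0.0719 and 0.192 in the other 5, and it was -0.37 without INM replicate 1.

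LAMA4, the alpha chain of vascular and mesenchymal basement membranes, read 5.73 and 5.70 in hESC, 5.56 and 5.95 in INM, then 7.64 and 7.73 in SMC. INM overlapped hESC, and SMC lay above both. LAMA4 was 3.80-fold higher in SMC than in INM (1.93, SE 0.15, adjusted p = 0.000552) and 3.92-fold higher than in hESC (1.97, SE 0.15, adjusted p = 0.000197). LAMA5, the widespread alpha chain that stem cells are commonly grown on, stayed between 8.31 and 8.62 and was not called. The 95% interval of its SMC minus hESC difference ran from -0.44 to 0.15.

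Of the laminin beta chains LAMB1 was called higher in both derivatives than in hESC, and LAMB2 only in SMC. LAMB1 read 9.33 and 9.33 in hESC, 11.81 and 11.07 in INM, then 11.28 and 11.19 in SMC. The SMC arrays lay within the INM range, both far above hESC. LAMB1 was 4.31-fold higher in INM (2.11, SE 0.23, adjusted p = 0.00112) and 3.75-fold higher in SMC (1.91, SE 0.23, adjusted p = 0.00113) than in hESC. LAMB2, the beta chain of mature muscle and vessel basement membranes, read 8.47 and 8.48 in hESC, 8.82 and 8.74 in INM, then 9.55 and 9.71 in SMC. SMC was above all other arrays, 1.80-fold over INM (0.85, SE 0.12, adjusted p = 0.00405) and 2.23-fold over hESC (1.16, SE 0.12, adjusted p = 0.000538). The call of SMC against INM ended without SMC replicate 2 (adjusted p = 0.0522), and the INM minus hESC difference of 0.31 was not called (adjusted p = 0.0852).

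LAMB3, an epithelial laminin chain, was 0.48 higher in INM than in hESC (SE 0.12, adjusted p = 0.0227), with arrays at 6.52 and 6.48 in INM, against 6.12 and 5.92 in hESC, and SMC at 6.17 and 6.15. That call ended when any hESC or SMC array was left out (adjusted p from 0.0524 to 0.122). LAMB4 lay at 4.92 to 5.20 on all arrays, under the median of unnamed probe sets in each group.

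LAMC1, the gamma chain of most laminins, read 9.93 and 10.09 in hESC, 10.90 and 11.18 in INM, then 10.88 and 10.86 in SMC. Both derivatives stood above hESC and differed little from each other. LAMC1 was 2.05-fold higher in INM (1.03, SE 0.14, adjusted p = 0.00232) and 1.82-fold higher in SMC (0.86, SE 0.14, adjusted p = 0.00347) than in hESC. LAMC3 read 7.76 and 7.71 in hESC, 7.0 and 7.75 in INM, then 7.11 and 7.13 in SMC. Its SMC minus hESC difference of -0.62 was not called on all arrays (adjusted p = 0.0826). It was called with only the 2 groups compared, the same fit as without either INM array (0.0014). Array weights (0.00807) and quantile normalization (0.0392) also gave a call.

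**Figure D4:**
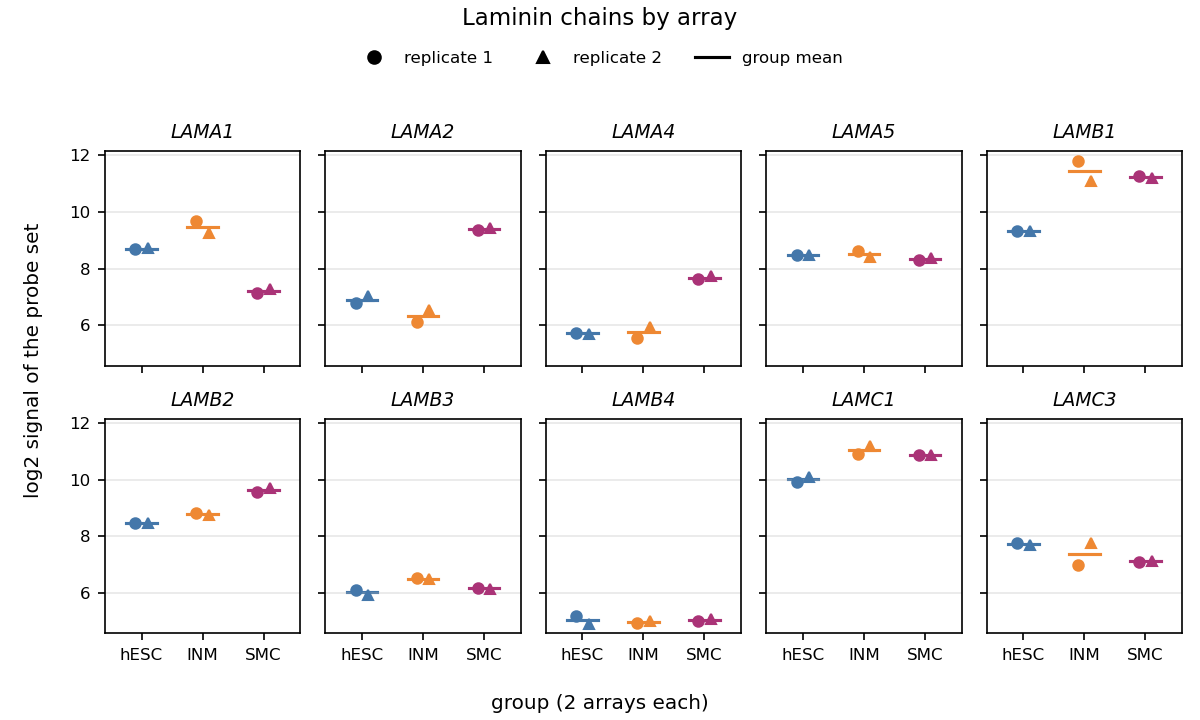
Log2 signal (vertical axis) of each laminin chain on every array, by group (horizontal axis), where circles are replicate 1, triangles replicate 2 and lines group means. LAMA1 drops to 7.14 and 7.26 in SMC, where LAMA2 reaches 9.37 and 9.43, and LAMB1 is raised in INM and SMC alike.

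INM was also tested against the mean of hESC and SMC. A gene can be called here when only 1 of those groups differs from INM. In this contrast 9 genes were higher and 3 lower, beside 13.8% and 10.3% of all genes, or 12 called in all beside 24.2%. Among the higher genes the largest difference was that of ITGB6 (3.20, SE 0.22, adjusted p = 0.000383), then ITGA9 (1.97, SE 0.09, adjusted p = 0.000112) and LAMA1 (1.53, SE 0.14, adjusted p = 0.00104). ITGAV, LAMB1, ITGA5, ITGB8, LAMC1 and LAMB3 were also higher, at 1.30, 1.16, 1.04, 1.25, 0.60 and 0.41. Of these, ITGA5 had its highest mean in SMC (11.53, against 11.09 in INM). ITGAV, LAMB1, LAMC1 and LAMB3 were not called between SMC and INM, and ITGB8 was not called between INM and hESC. LAMA2, LAMA4 and ITGA7 were lower, at -1.83, -0.94 and -0.37. LAMA4 in INM lay near hESC (means 5.76 and 5.71), and ITGA7 was lowest in SMC (6.12, against 6.47 in INM). When each array was left out in turn, the calls of ITGB8, LAMC1, LAMB3 and ITGA7 ended in at least 1 fit, with adjusted p up to 0.0797, 0.0646, 0.111 and 0.113. Without either INM array the fit held no INM spread, so calls gained there are not read as a difference.

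The INM arrays parted more for these genes than the pairs of the other groups. Of the 35 genes 8 differed by more than 1 between the INM arrays, 22.9%, where 3.8% of all genes did, and none differed so in the hESC or SMC pairs. INM replicate 1 was the higher for ITGA4 by 2.42, ITGA2 by 2.19, ITGA11 by 1.91, ITGA3 by 1.87, ITGA6 by 1.31 and ITGB4 by 1.14. Replicate 2 was the higher for ITGA8 by 1.62 and ITGB8 by 1.06. Next came ITGB6 at 0.82 and LAMC3 at -0.76, given as replicate 1 minus replicate 2. ITGA7 and ITGA9 were close to equal on that scale, at -0.04 and -0.01. Between SMC and INM, without INM replicate 2, the differences of ITGAV, ITGB1, LAMB1 and ITGB4 were -0.67, -0.54, -0.57 and -1.02. Without INM replicate 1 the same differences were -0.08, 0.12, 0.17 and 0.12.

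**Figure D5:**
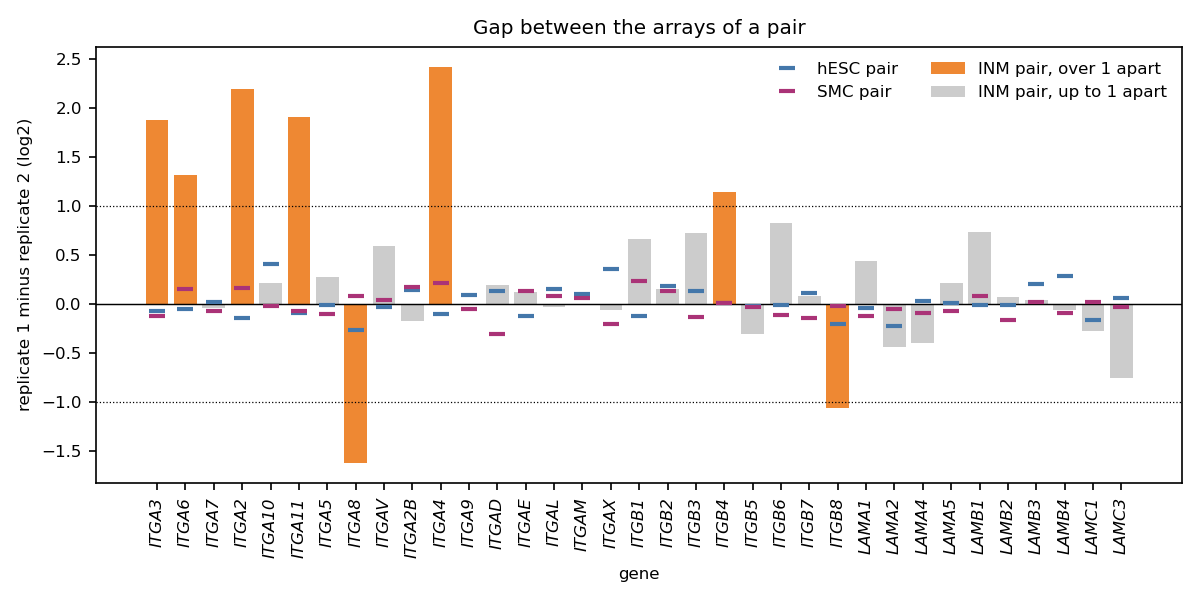
Replicate 1 minus replicate 2 on the log2 scale (vertical axis) for each of the 35 genes (horizontal axis). Bars show the INM pair, orange where the gap exceeds 1, and short dashes show the hESC and SMC pairs, none of which passes 1.

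Markers of other cells differed between the INM arrays too. Over 6 trophoblast markers the median of replicate 1 minus replicate 2 was 0.70, of which 5 were higher in replicate 1. The same difference had a median of -0.54 over 8 mesoderm markers, with 6 lower in replicate 1, and -0.22 over 7 epithelial markers. Its median was 0.14 over 8 endothelial markers, where single genes ran from -2.55 to 1.87. Medians over 8 smooth muscle, 8 pluripotency and 7 haematopoietic markers were 0.02, -0.30 and -0.03. NID2, the nidogen of vascular basement membrane, and NPNT, the ITGA8 ligand nephronectin, were lower in replicate 1, at -2.99 and -2.98. Whether these marker levels have a part in the parting of the integrins was not tested.

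Genes of the proteins that tie integrin tails to actin were then counted. Of 27 measured adhesion complex genes, 15 were higher and 1 lower in INM than in hESC, beside 18.9% and 14.8% of all genes, with a median change of 0.75, against -0.03 over all genes. In SMC 14 were higher and 1 lower than in hESC, beside 19.7% and 17.6% of all genes, with a median of 0.60, against -0.05 over all genes. The counts of higher genes ran from 11 to 19 and from 11 to 18 when each array was left out. PARVA, which links integrin-linked kinase to actin, was 2.43 higher in INM and 2.66 higher in SMC than in hESC, and its partner kinase ILK 1.10 and 1.16. TLN1, the talin that activates integrins, rose by 1.70 in INM and 1.83 in SMC, against hESC. The tensin TNS3 and the paxillin relative TGFB1I1 rose by 2.42 and 1.95 in INM. The 1 gene lower in both derivatives was ITGB1BP2, a muscle chaperone that binds ITGB1, at -1.57 in INM and -1.27 in SMC.

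Between SMC and INM 3 of these genes rose and 5 fell, beside 9.94% and 11.1% of all genes. TNS2, TNS1 and PARVB rose by 1.0, 0.91 and 0.77. TLN2 fell by 1.55, the kinase SRC by 1.44, TNS3 by 0.91, focal adhesion kinase PTK2 by 0.79 and the epithelial kindlin FERMT1 by 0.66. Without SMC replicate 1 or 2 only 1 rise and 2 falls were called, those of TNS2, TLN2 and SRC.

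Partners of laminin in the basement membrane included collagen and nidogen genes that rose in both derivatives. Of 15 measured genes 8 were higher and 2 lower in SMC than in hESC, beside 19.7% and 17.6% of all genes, with a median change of 0.61. COL4A1 and COL4A2, the main type IV collagen chains, rose by 2.40 and 2.01 in INM and by 3.39 and 3.01 in SMC, against hESC, and the nidogen gene NID1 rose by 1.56 and 2.18. COL15A1, a collagen of vessel and muscle basement membranes, rose by 2.94 in SMC against INM. FREM2 and FRAS1, epithelial basement membrane proteins, fell by 5.85 and 2.05 in SMC against INM. NID2 was 4.45 higher in SMC than in hESC (adjusted p = 0.00659), a call that ended without hESC replicate 1 (adjusted p = 0.0521) or SMC replicate 2 (0.0509). In SMC against INM 6 genes were higher, beside 9.94% of all genes, but only 2 and 1 without SMC replicates 1 and 2.

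Ligands of integrins other than laminin had 15 of 25 measured genes higher and 3 lower in SMC than in hESC, beside the same 19.7% and 17.6%, with a median change of 2.27. Vitronectin (VTN), a ligand of ITGAV pairs, rose by 3.39 in SMC against INM, and VCAM1, a ligand of ITGA4, by 2.85. Thrombospondin 1 (THBS1) and periostin (POSTN) rose by 2.91 and 3.60 in INM against hESC. Osteopontin (SPP1), a ligand of ITGAV and ITGA9, fell by 2.93 in SMC against INM, and CDH1, the ligand of ITGAE, by 4.10. MADCAM1 was the third gene lower in SMC than in hESC, at -0.48, a call lost when any hESC or SMC array was left out (adjusted p from 0.0769 to 0.158). Of 8 measured laminin receptors that are no integrins, SDC3, CD151, SGCB and SDC2 were higher in SMC than in hESC, beside 19.7% of all genes, by 1.79, 1.14, 0.68 and 0.44, and BCAM, a receptor for LAMA5, was lower by 0.94. The SDC2 call ended when any hESC or SMC array was left out (adjusted p from 0.0744 to 0.154), and that of BCAM without hESC replicate 2 (0.0533) or SMC replicate 2 (0.0585).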

How the data were processed

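Expression was deposited as log2 values of 33297 probe sets on 6 arrays, between 1.36 and 14.09. The submitters' processing notes name RMA and limma, with no version. The scale was judged from the range of the values, and RMA settings were not given in the sources used. Gene names came from the platform annotation, with symbols updated by Entrez identifier to a RefSeq table of GRCh38.p14 (19429 of 19460 single-symbol probe sets matched). For genes with several probe sets the one with the highest mean was kept, and each of the 35 members had 1. The deposited log2 values were fitted with limma 3.58.1 in R 4.3.3 as 3 group means over all 6 arrays (3 residual and 3.56 prior degrees of freedom, two-sided tests, Benjamini-Hochberg adjustment over 18417 genes). The fit was tested on simulated data. Folds are given where both group means lay above the group's median of probe sets with no symbol, which was 5.63 in hESC, 5.08 in INM and 5.32 in SMC, a limit set after seeing the data. Any member could be named. From each partner list up to 4 called genes with the largest change, and all called genes where 5 or fewer were called, could be named. Further genes were named after their values were seen: ILK, FN1, COL1A1, NPNT, LIN28A, MYH11, MYOCD, PTPRC, and type IV collagen, nidogen, epithelial and trophoblast genes. Members and lists were chosen with earlier results of these data known. The alternatives were a replicate block, leaving out each array, median centring, quantile normalization, a low-signal filter at 5.04, the mean of probe sets, only the 2 groups compared, array weights, and a trended robust prior. With 2 arrays a group, their number limits precision.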

Additional observations from a re-analysis of the deposited data

Results flagged for a closer look

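Probe set 8105229, which carries PELO and ITGA1, was left out of the comparisons because it names no single gene. It was listed for a closer look because its signal was higher in the derivatives than in the undifferentiated cells. It read 7.42 and 7.79 in hESC, 9.59 and 8.64 in INM, then 9.56 and 9.62 in SMC, with a mean difference of 1.98 in SMC minus hESC and 1.51 in INM minus hESC. The difference was not tested. PELO codes for a ribosome rescue factor and ITGA1 for a collagen receptor of smooth muscle, and the share of each in the signal cannot be told apart.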

How the results depend on the processing

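Leaving out each array in turn, the number of the 35 genes called ran from 8 to 21 in INM minus hESC (7 to 16 higher, 1 to 5 lower), 5 to 18 in SMC minus INM (2 to 9 higher, 3 to 12 lower), 13 to 22 in SMC minus hESC (10 to 15 higher, 3 to 7 lower) and 8 to 21 in INM minus the mean of hESC and SMC (6 to 17 higher, 2 to 5 lower). Called in all 6 such fits were 8 of 15, 5 of 10, 13 of 14 and 8 of 12 genes. In SMC minus INM the sign turned with the INM array left out: without replicate 1 and without replicate 2 it was 0.55 and -1.32 for ITGA3, 0.83 and -1.58 for ITGA4, and 1.08 and -1.10 for ITGA2. In INM minus the mean of hESC and SMC the same fits gave -0.39 and 1.51 for ITGA11, and -0.50 and 1.68 for ITGA2. Fitting only the 2 groups compared gave 1 gene lower in INM minus hESC, and 22 called with 7 lower in SMC minus hESC, as did array weights in the last. Quantile normalization gave 6 lower in SMC minus hESC, and median centring 5 lower in INM minus the mean of hESC and SMC. Other counts under these alternatives, the low-signal filter, the mean of probe sets and the trended prior stayed within 1.5 times. The share of all genes called moved too in the fits with an array left out. Each such fit drew its spread from the other groups only. The causes were not tested. Same-numbered samples deviated little together (correlations 0.074 for hESC and INM, -0.119 for hESC and SMC, -0.067 for INM and SMC). Each group gives a single replicate difference, so this cannot show whether the numbers pair the samples. With the replicate block 16, 10, 15 and 12 genes were called in the 4 contrasts, and 4 calls changed: gained were ITGB8 in INM minus hESC (0.91, adjusted p = 0.0431), ITGA4 in SMC minus hESC (1.89, 0.0486) and ITGB1 in INM minus the mean of hESC and SMC (0.65, 0.0472), and lost was ITGA7 in the last contrast (-0.37, 0.0562). Signal near that of unnamed probe sets limits ITGA8, ITGB3 and ITGB6 in hESC, ITGAL in hESC and INM, and LAMB4 in every group.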
